A study of Paxillus involutus with 25 samples.

Results

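The genes described here are those of the ectomycorrhizal fungus Paxillus involutus whose transcript level moved the same way with muscovite, phlogopite and K-vermiculite. A gene was chosen when its mean level with each of the 3 minerals was at least 25% above, or at least 20% below, its mean on K-depleted medium. It also needed a mean of at least 5 CPM (counts scaled to a library total of 1000000) over all libraries, a complete-medium mean strictly between 0.5 and 2 times the K-depleted mean, and a K-vermiculite mean within 1.5-fold of the range between the control means. Of 18032 gene IDs, 10108 had a mean of at least 5 CPM, 8984 met every criterion before that on the minerals, and 121 met all of them. Of these 121 members, 67 were higher with all 3 minerals and are called the raised members. The other 54 were lower with all 3 and are called the lowered members. Both names describe group means and stand for no test.

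Ectomycorrhizal fungi live on the roots of trees, take up mineral nutrients from soil through their mycelium and pass part of them to the host. Potassium in soil is largely locked in minerals. Micas such as muscovite and phlogopite, and potassium-bearing vermiculite, are sheet silicates that hold potassium ions between their layers, and fungi can release these ions by acidification, by chelating organic acids and by taking up the ion itself. Inside the cell potassium is the main cation that balances charge and sets turgor.

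RNA was sequenced from mycelium of strain ATCC 200175 in 25 cultures, 5 in each of 5 groups, to learn how the fungus responds to potassium held in minerals. The complete-medium group grew on full modified MMN agar, a defined medium for ectomycorrhizal fungi. The K-depleted group grew on the same agar made without KH2PO4. The muscovite, phlogopite and K-vermiculite groups also grew on this K-depleted agar, with flakes of about 2 cm2 of the named mineral laid on the cellophane membrane that carried the fungus. All groups were inoculated with plugs cut from 7-day-old cultures and incubated in darkness at 25 °C for 21 days. Leaving out KH2PO4 removes phosphate together with potassium, and no replacement phosphate is named in the labels, so the effects of these nutrients cannot be told apart between the media. The mineral groups share the missing salt with the K-depleted group.

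Library totals ran from 21.0 to 41.2 M counts. The lowest count of a member in a library was 28, no member was at 0 in any library, and all 121 passed the filter on low counts. The labels call the 5 cultures of a group biological replicates and give no extraction or sequencing batch. In bulk mycelium, fewer cells with a transcript and less of it per cell cannot be told apart. The files and the reference give the members only as IDs: all 121 are annotated as protein-coding and none has a product name, so no function is given for any of them. Their sequences were not analysed here.

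Several libraries stood apart from their group at the members, and the values that follow rest on them. For each library, the log2 ratio of each member's level to its K-depleted mean was taken, with 0.5 CPM added, and the median over the members was computed. Over the 67 raised members this median was -0.14, -0.08, -0.15, 0.10 and 0.25 in K-depleted replicates 1 to 5. With muscovite it was 0.16, 0.14, 0.98, 0.79 and 0.16, and with phlogopite -0.01, 0.04, 0.79, 0.97 and 1.30. Muscovite replicates 3 and 4 and phlogopite replicates 3 to 5 were thus well above K-depleted medium, whereas muscovite replicates 1, 2 and 5 and phlogopite replicates 1 and 2 lay within the range of the K-depleted libraries. With K-vermiculite all 5 libraries lay together, at 0.59, 0.70, 0.57, 0.63 and 0.79. On complete medium they were at 0.37, 0.54, 0.78, 0.71 and 0.79. Over all 10108 genes of at least 5 CPM, the same median stayed between -0.06 and 0.11 in every library.

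**Figure D1:**
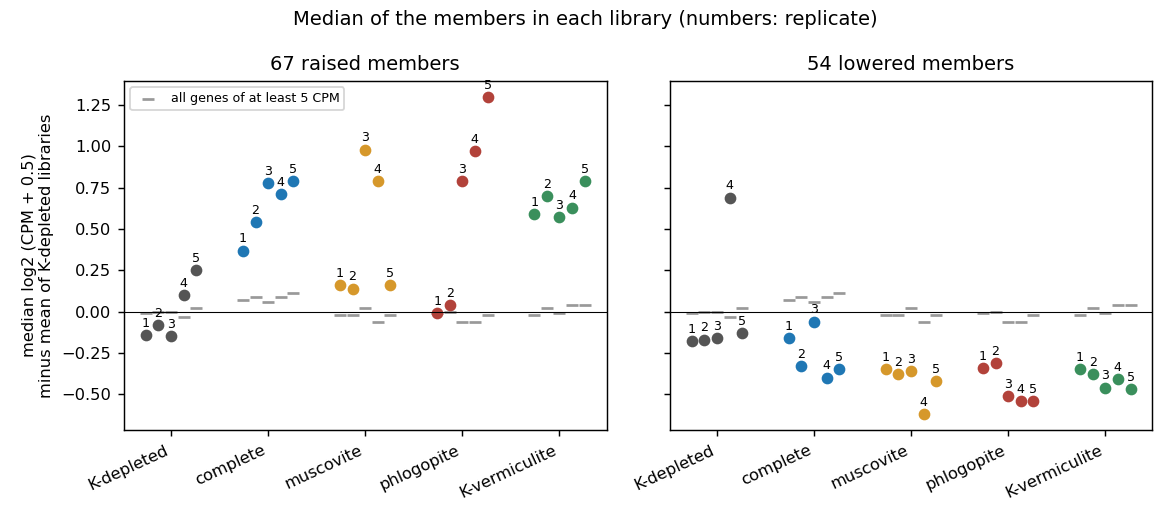
Median over the 67 raised (left) and 54 lowered (right) members of log2 (CPM + 0.5) minus the mean of the K-depleted libraries, 1 point per library with its replicate number, and grey bars for all genes of at least 5 CPM. Muscovite replicates 3 and 4 (0.98 and 0.79) and phlogopite replicates 3 to 5 (0.79 to 1.30) stand above the other libraries of their groups at the raised members, and K-depleted replicate 4 (0.69) stands above its group at the lowered members.

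The lowered members showed another arrangement. Their median was -0.18, -0.17, -0.16, 0.69 and -0.13 in K-depleted replicates 1 to 5, so that replicate 4 alone lay high. It was between -0.62 and -0.35 in the 5 muscovite libraries, between -0.54 and -0.31 with phlogopite and between -0.47 and -0.35 with K-vermiculite. On complete medium it ran from -0.40 to -0.06. All 15 mineral libraries were therefore below the 4 other K-depleted libraries at the median lowered member, by less than the distance of K-depleted replicate 4 from its own group. K-depleted replicate 4 was the highest library of its group in 41 of 54 lowered members, against 22.5% of all genes of at least 5 CPM. It was far above its group, by Dixon's gap criterion for 5 values, in 33 of 54, against 3.36% of all such genes.

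The spread between replicates followed these libraries. The coefficient of variation (CV, SD over mean) of the raised members had a median of 33.5% with muscovite and 41.5% with phlogopite, against 15.5% on K-depleted medium, 15.5% on complete medium and 10.8% with K-vermiculite. That of the lowered members had a median of 35.6% on K-depleted medium and of 8.37% to 14.0% in the other 4 groups. Over all genes of at least 5 CPM, the group medians of the CV lay between 7.05% and 9.07%.

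**Figure D2:**
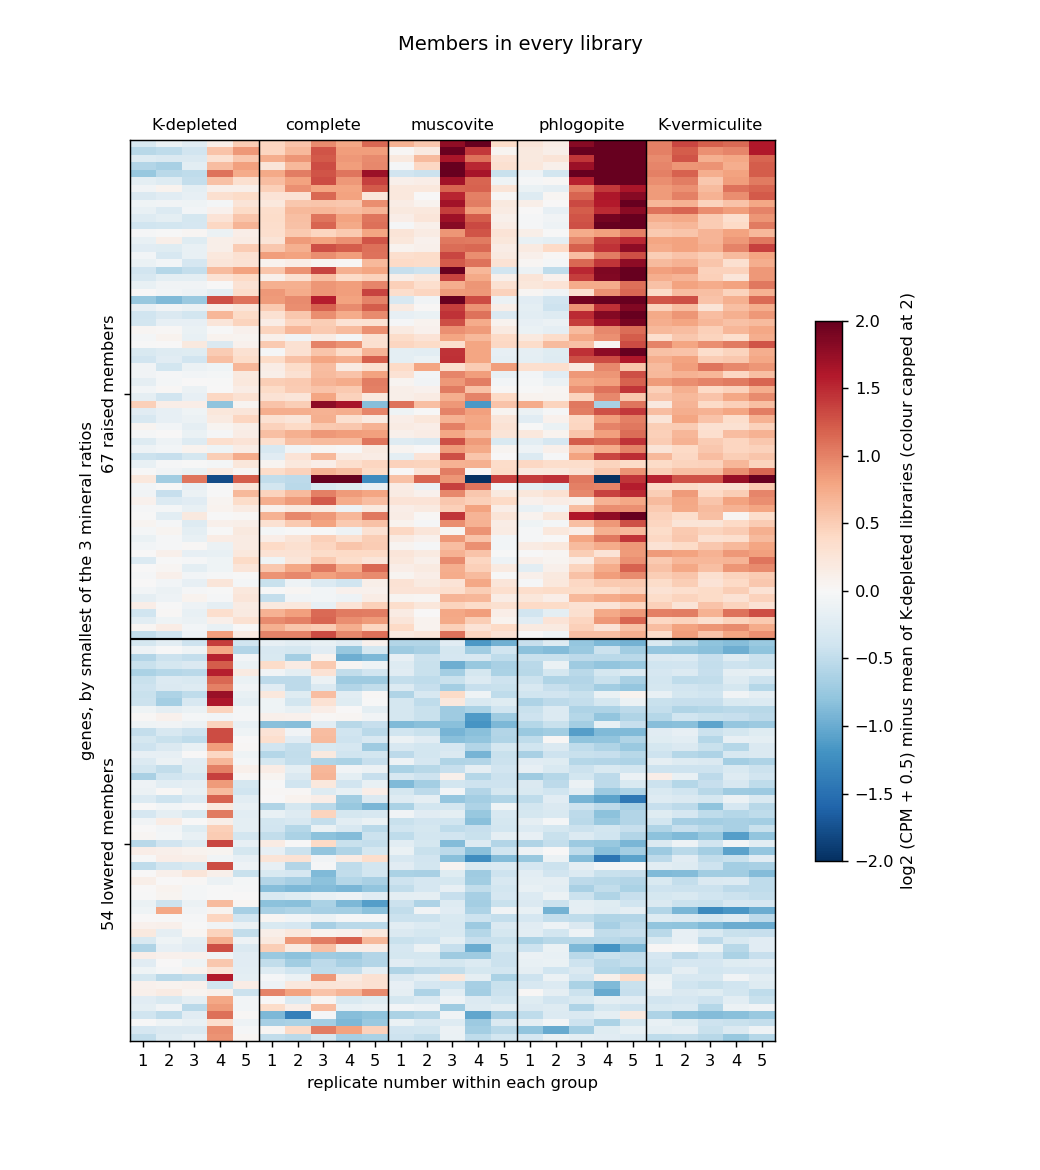
Each row is 1 of the 121 members and each column 1 of the 25 libraries, coloured by log2 (CPM + 0.5) minus the mean of the K-depleted libraries, with colours capped at 2. At the raised members, muscovite replicates 3 and 4 and phlogopite replicates 3 to 5 stand above the rest of their groups. The medians of complete-medium replicates 3 and 5 and K-vermiculite replicate 5 (0.78, 0.79 and 0.79) are like those of muscovite replicate 4 and phlogopite replicate 3 (both 0.79). The red column at the lowered members is K-depleted replicate 4.

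The raised members were higher with every mineral by group means. These ratios chose the members, so they are given as a description, and the rule bounds the K-vermiculite mean from above (6 raised members lay within 10% of that bound) but not the muscovite and phlogopite means. The median log2 ratio of group means over K-depleted medium was 0.48 with muscovite (0.33 to 1.21), 0.67 with phlogopite (0.32 to 1.94) and 0.62 with K-vermiculite (from 0.36 to that of PAXINDRAFT_20962, a 2.38-fold ratio). The order of phlogopite and K-vermiculite turned without phlogopite replicate 5, when the phlogopite median was 0.51 beside 0.62, and without K-depleted replicate 4, when they were 0.65 and 0.68. By the means of all libraries, phlogopite was farthest from K-depleted medium of the 3 minerals in 42 of 67 members and muscovite nearest in 45. At least a 2-fold ratio was reached by 1 member with muscovite, 20 with phlogopite and 5 with K-vermiculite. When the group median took the place of the mean, the median log2 ratio of the same members was 0.29 with muscovite, 0.81 with phlogopite and 0.73 with K-vermiculite, and only 29 of 67 were past the 25% threshold with muscovite, against 60 with phlogopite and all 67 with K-vermiculite.

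Among the raised members, PAXINDRAFT_171517 had the highest ratios that all 3 minerals shared and was also the member with the most counts. Its level was 382, 439, 404, 522 and 674 CPM on K-depleted medium and 639.6, 707, 913, 806 and 1056 CPM on complete medium. With muscovite it was 768, 686, 1627, 1919 and 613 CPM, with phlogopite 563, 526, 1674, 2115 and 2571 CPM, and with K-vermiculite 955, 1192, 1089, 1041 and 1444 CPM. All 5 K-vermiculite values lay above all 5 K-depleted values, while muscovite replicate 5 and phlogopite replicates 1 and 2 lay inside the K-depleted range. The means were 484 ± 119 CPM (SD, n = 5) on K-depleted medium, 1122 ± 605 with muscovite, 1489.7 ± 919 with phlogopite and 1144 ± 188 with K-vermiculite, which are ratios of 2.32, 3.07 and 2.36. Without muscovite replicate 4, the smallest of its 3 log2 ratios was 0.93 in place of 1.21.

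PAXINDRAFT_170351 came next by the smallest of its 3 ratios. It measured 88.9, 92.6, 101, 196 and 239 CPM on K-depleted medium, 134, 149, 519.5, 351 and 137 CPM with muscovite, and 151, 143, 579, 734 and 844 CPM with phlogopite. With K-vermiculite it measured 264, 303, 248, 258 and 398 CPM, all above the K-depleted values. The muscovite and phlogopite libraries that lay above every K-depleted library were again muscovite replicates 3 and 4 and phlogopite replicates 3 to 5. Its ratios were 1.80, 3.41 and 2.05, and without muscovite replicate 3 the smallest log2 ratio fell from 0.85 to 0.43.

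PAXINDRAFT_121258 was uneven in the same libraries. Its K-depleted values were 25.4, 29.7, 30.5, 92.4 and 72.7 CPM. With muscovite they were 33.3, 32.0, 202, 137 and 31.9 CPM, and with phlogopite 40.6, 33.6, 223, 294 and 381 CPM. K-vermiculite gave 88.4, 99.0, 72.6, 76.1 and 101 CPM, and complete medium 73.8, 89.3, 105, 92.3 and 143 CPM. The K-depleted group was itself uneven here, with replicates 4 and 5 inside the K-vermiculite range. Without muscovite replicate 3 the smallest of its log2 ratios was 0.22 in place of 0.79, below the threshold of the rule.

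The other 5 of the 8 raised members with the highest shared ratios followed the same arrangement. PAXINDRAFT_161081 averaged 10.6 ± 3.17 CPM (SD, n = 5) on K-depleted medium and 19.2 ± 8.82, 36.0 ± 27.5 and 20.9 ± 3.61 CPM with muscovite, phlogopite and K-vermiculite. PAXINDRAFT_84744 averaged 26.1 ± 12.6 CPM and, in the same order, 51.6 ± 34.7, 74.2 ± 47.5 and 46.2 ± 5.83 CPM. In both, the SD was highest with phlogopite and lowest with K-vermiculite of the 3 minerals. PAXINDRAFT_104169 had ratios of 1.65, 2.88 and 1.78, PAXINDRAFT_103737 log2 ratios of 0.67, 0.93 and 0.94, and PAXINDRAFT_172480 ratios of 1.58, 2.10 and 1.90. Of these, PAXINDRAFT_104169 overlaps a neighbouring gene in the reference, so its counts may include reads of that gene.

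The raised members with the most counts after PAXINDRAFT_171517 were PAXINDRAFT_11971, PAXINDRAFT_21630 and PAXINDRAFT_171054. PAXINDRAFT_11971 had control means of 734 ± 73.8 CPM (K-depleted) and 750.3 ± 89.4 CPM (complete), against 956 ± 241, 946 ± 217 and 1046 ± 94.0 CPM with muscovite, phlogopite and K-vermiculite. PAXINDRAFT_171054 averaged 529 ± 56.3 CPM on K-depleted medium, 456 ± 74.6 CPM on complete medium and 681 ± 126, 671 ± 105 and 703 ± 51.7 CPM with the minerals. For both, the control means lay below all 3 mineral means, although single mineral libraries overlapped the K-depleted ones. PAXINDRAFT_21630 differed: at 263, 283, 270.2, 553 and 455 CPM on K-depleted medium, it reached 944 and 739.8 CPM in muscovite replicates 3 and 4 and 981 to 1446 CPM in phlogopite replicates 3 to 5, against 285 to 316 CPM in the other muscovite and phlogopite libraries. This gene also overlaps a neighbouring one.

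Counted library by library, muscovite replicates 3 and 4 exceeded all 5 K-depleted values in 64 and 59 of the 67 raised members, and muscovite replicates 1, 2 and 5 did so in 21, 20 and 22. Phlogopite replicates 3, 4 and 5 did so in 58, 63 and 65 members, and replicates 1 and 2 in 10 and 12. With K-vermiculite the number ran from 52 to 65 over the 5 libraries, and on complete medium from 33 to 56. The rule used the means of these same libraries, and the share over all genes was not computed. These counts are therefore a description of the members, from which nothing is read. Phlogopite replicate 5 was the highest of its group in 60 of 67 raised members, against 25.0% of all genes of at least 5 CPM, muscovite replicate 3 in 47, against 39.3%, and K-depleted replicate 5 in 48, against 31.0%.

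Not every raised member had this arrangement. PAXINDRAFT_162564, chosen after its values were seen, measured 179, 172, 184, 185 and 215 CPM on K-depleted medium and 186, 192, 179, 199 and 198 CPM on complete medium. It measured 226, 225, 235, 263 and 236 CPM with muscovite, 237, 243, 244, 241 and 257 CPM with phlogopite and 229, 235, 244, 262 and 229 CPM with K-vermiculite. All 15 mineral values lay above all 10 control values, by ratios of 1.27, 1.31 and 1.28 over the K-depleted mean. PAXINDRAFT_20962 and PAXINDRAFT_97469, also picked out after their values were seen, varied within groups on other lines. PAXINDRAFT_20962 ran from 1.48 to 15.3 CPM on K-depleted medium and from 2.35 to 41.3 CPM on complete medium, and it was at 1.04 CPM in muscovite replicate 4 and 1.06 CPM in phlogopite replicate 4, libraries in which most raised members were high. It overlaps a neighbouring gene. PAXINDRAFT_97469 was likewise lowest in muscovite replicate 4, at 1.22 CPM, and phlogopite replicate 4, at 1.91 CPM. Both genes were also lowest of their group in K-depleted replicate 4, at 1.48 CPM for PAXINDRAFT_20962 and 1.66 CPM for PAXINDRAFT_97469. They were not lowest in replicate 4 of complete medium or K-vermiculite.

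**Figure D3:**
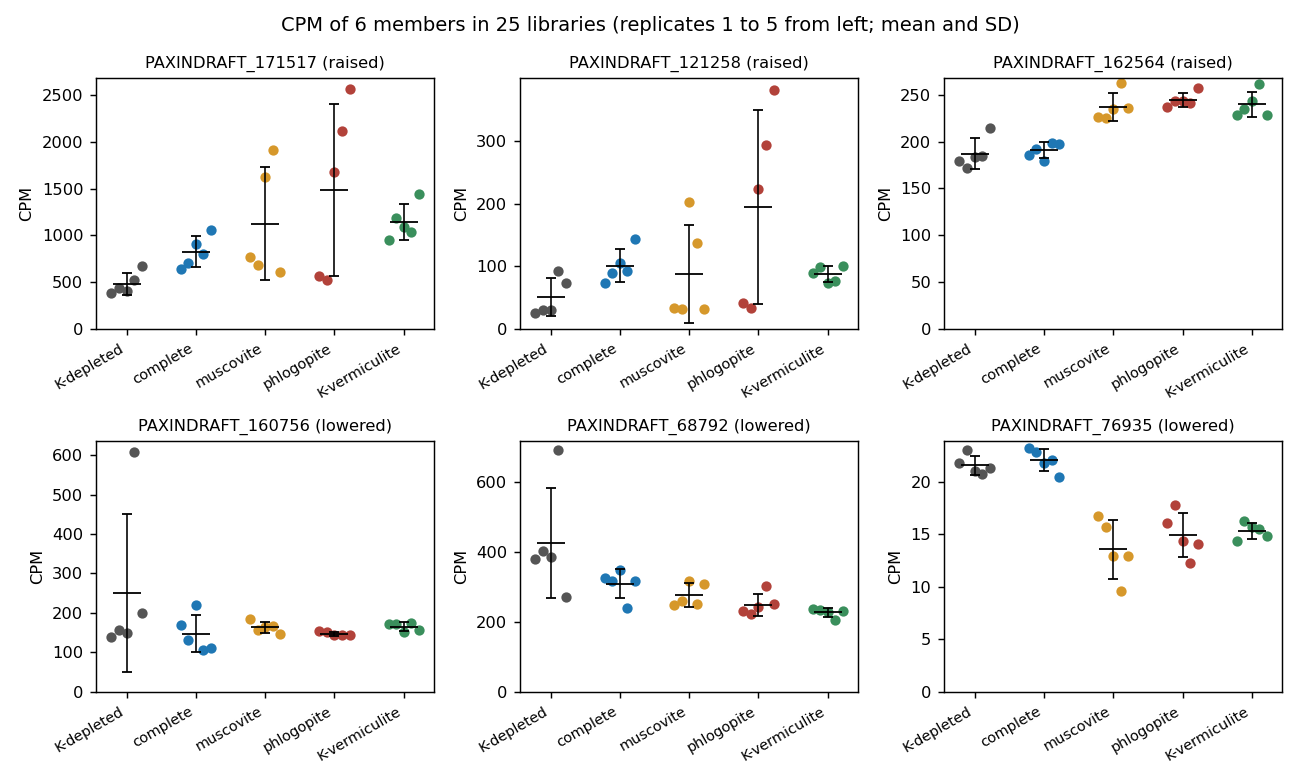
CPM of 6 members in every library, replicates 1 to 5 from left within each group, with the mean and SD (n = 5) as bars. PAXINDRAFT_171517 and PAXINDRAFT_121258 are uneven with muscovite and phlogopite, PAXINDRAFT_160756 and PAXINDRAFT_68792 rest in part on K-depleted replicate 4 (608 and 694 CPM), and the mineral values of PAXINDRAFT_162564 and PAXINDRAFT_76935 do not overlap the controls.

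The lowered members were lower with each mineral by group means. These ratios chose the members and share the K-depleted mean, so they too are given as a description. The rule bounds the K-vermiculite mean from below (7 lowered members lay within 10% of that bound) but not the muscovite and phlogopite means. The median log2 ratio over K-depleted medium was -0.49 with muscovite (-0.94 to -0.33), -0.47 with phlogopite (-1.03 to -0.32) and -0.48 with K-vermiculite (-1.04 to -0.33). At least a 2-fold lower mean was reached by 1 member with phlogopite, by 1 with K-vermiculite and by 0 with muscovite. Without K-depleted replicate 4 these medians were -0.29, -0.30 and -0.25, and 41 of the 54 members still lay below K-depleted medium with all 3 minerals. When the group median took the place of the mean, they were -0.30, -0.37 and -0.31. Only 26, 31 and 23 of 54 were then past the threshold with muscovite, phlogopite and K-vermiculite, and 42 lay below K-depleted medium with all 3. By group means, no mineral was farthest in most of the 54 members: K-vermiculite was farthest from K-depleted medium in 20 members, phlogopite in 22 and muscovite in 12.

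PAXINDRAFT_160756 shows how K-depleted replicate 4 entered the rule. Its K-depleted values were 139, 155, 149, 608 and 199.8 CPM. Muscovite gave 185, 155, 164, 166 and 146 CPM, phlogopite 153, 152, 144, 143 and 143 CPM, and K-vermiculite 171, 172, 151, 174 and 155 CPM. K-depleted replicates 1 to 3 lay no higher than the mineral libraries did, and only replicates 4 and 5 lay above all of them. The ratios of 0.652, 0.588 and 0.658 therefore did not stand without replicate 4, when the smallest log2 ratio was 0.02 in place of -0.60. PAXINDRAFT_100001, with the lowest shared ratios at 0.549, 0.557 and 0.559, measured 12.1, 13.3, 11.5, 41.0 and 11.6 CPM on K-depleted medium, and its smallest log2 ratio was -0.30 in place of -0.84 without replicate 4.

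The other lowered members with the widest shared ratios had K-depleted replicate 4 as their highest library too. In PAXINDRAFT_171872 it stood at 93.9 CPM, against 29.5 to 36.7 CPM in the 4 other K-depleted libraries and 20.2 to 36.8 CPM in the 15 mineral libraries. In PAXINDRAFT_96152 it stood at 237 CPM, against 51.5 to 91.5 CPM and 49.9 to 71.8 CPM. PAXINDRAFT_177335, PAXINDRAFT_113227 and PAXINDRAFT_20919 had it at 156, 74.1 and 34.5 CPM, and in none of these 5 members were the 4 other K-depleted libraries all above the mineral ones. Without replicate 4 the smallest log2 ratio was -0.12 in PAXINDRAFT_171872, -0.06 in PAXINDRAFT_96152, -0.12 in PAXINDRAFT_177335 and -0.17 in PAXINDRAFT_113227, and in PAXINDRAFT_20919 it turned to 0.18.

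PAXINDRAFT_68792 kept its direction without that library. It measured 380.1, 404, 385, 694 and 271 CPM on K-depleted medium, 247, 259, 317, 251 and 309 CPM with muscovite, 230.4, 222, 242, 302 and 249.8 CPM with phlogopite and 238, 235, 227, 206 and 232 CPM with K-vermiculite. Its K-depleted replicates 1 to 4 were above all 15 mineral values, and replicate 5, at 271 CPM, was inside the muscovite and phlogopite ranges and above the K-vermiculite one. Its ratios were 0.648, 0.584 and 0.534, and the smallest log2 ratio was -0.38 in place of -0.63 without replicate 4. The lowered members with the most counts also included PAXINDRAFT_5582, at 191 ± 78.3 CPM (SD, n = 5) on K-depleted medium and 153 ± 25.1, 139 ± 13.2 and 152 ± 19.6 CPM with the minerals, and PAXINDRAFT_169682, at 201 ± 140.1 CPM and 141 ± 26.9, 128 ± 21.4 and 149.8 ± 27.3 CPM. Both had K-depleted replicate 4 as the highest library, at 327 and 448 CPM.

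In 11 members the 15 mineral values did not overlap the 5 K-depleted values, 4 raised and 7 lowered, and these genes were therefore chosen after their values were seen. Over all genes of at least 5 CPM, 0.148% lay above and 0.346% below in this way, a background from which nothing is read since the means of the same libraries chose the members. The raised ones were PAXINDRAFT_162564, PAXINDRAFT_106804, PAXINDRAFT_12900 and PAXINDRAFT_55327. PAXINDRAFT_106804 ran from 88.3 to 115 CPM on K-depleted medium and from 126 to 161 CPM with the minerals, and PAXINDRAFT_12900 from 138 to 161 CPM and from 174 to 355 CPM. PAXINDRAFT_55327, which overlaps a neighbouring gene, ran from 5.88 to 7.62 CPM and from 8.03 to 10.3 CPM.

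The 7 lowered ones included members with an even K-depleted group. PAXINDRAFT_76935 measured 21.8, 23.0, 21.0, 20.7 and 21.3 CPM on K-depleted medium and 23.2, 22.8, 21.8, 22.1 and 20.5 CPM on complete medium. It measured 16.7, 15.7, 12.9, 9.60 and 12.9 CPM with muscovite, 16.1, 17.8, 14.4, 12.3 and 14.1 CPM with phlogopite and 14.4, 16.3, 15.7, 15.5 and 14.8 CPM with K-vermiculite. All 15 mineral values lay below all 10 control values, and the ratios to the K-depleted mean were 0.637, 0.700 and 0.718. PAXINDRAFT_172847 ran from 61.4 to 66.0 CPM on K-depleted medium and from 39.6 to 58.1 CPM with the minerals, and its complete-medium values, 51.0 to 59.0 CPM, overlapped the mineral ones. PAXINDRAFT_108123 and PAXINDRAFT_118741 were lower still on complete medium than with the minerals: for PAXINDRAFT_108123 the ranges were 9.82 to 10.6 CPM on K-depleted medium, 6.23 to 9.08 CPM with the minerals and 5.10 to 5.63 CPM on complete medium, and for PAXINDRAFT_118741 they were 44.5 to 51.9, 29.4 to 42.2 and 27.0 to 32.2 CPM. The remaining 3 were PAXINDRAFT_81125, PAXINDRAFT_102758 and PAXINDRAFT_103988, and in the last of them the complete-medium values, 14.1 to 17.9 CPM, lay above the mineral range of 9.77 to 13.4 CPM. PAXINDRAFT_118741 and PAXINDRAFT_103988 overlap a neighbouring gene.

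Complete medium lay on the same side of K-depleted medium as the minerals for most members, where the rule sets only a 2-fold limit on either side. Of the raised members, 52 were past the same threshold on complete medium, 14 lay within the thresholds of 25% above and 20% below, and 1 was past the lower one. Of the lowered members, 27 were past the lower threshold, 24 within both and 3 past the upper one. The K-depleted mean was the lowest of the 5 group means in 63 of 67 raised members and the highest in 42 of 54 lowered ones. All 4 comparisons with K-depleted medium use the same 5 K-depleted libraries, so a K-depleted mean that is high or low by 1 library moves all of them the same way. Without K-depleted replicate 4, the median log2 ratio of complete over K-depleted medium was 0.01 at the lowered members, in place of -0.32, and 0.65 at the raised members, in place of 0.64. Scaling matters here as well: with library totals, on which the rule is based, the median log2 fold change of all tested genes between complete and K-depleted medium was 0.11, and with TMM factors it was 0.01. On the TMM scale the median log2 fold change of complete over K-depleted medium was 0.54 at the raised and -0.45 at the lowered members.

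The members past a threshold on the other side on complete medium were chosen after their values were seen. PAXINDRAFT_156907, a raised member, measured 114, 117, 105, 116 and 140.0 CPM on K-depleted medium and 91.3, 81.4, 94.0, 98.8 and 105 CPM on complete medium, and averaged 182 ± 90.1, 206 ± 106 and 154 ± 9.84 CPM (SD, n = 5) with muscovite, phlogopite and K-vermiculite. The lowered member PAXINDRAFT_128630 measured 28.6, 29.8, 27.7, 28.5 and 19.7 CPM on K-depleted medium and 53.5, 46.7, 39.6, 43.1 and 51.7 CPM on complete medium, and averaged 19.9 ± 3.20, 20.4 ± 5.24 and 21.2 ± 1.84 CPM with the minerals. Its complete-medium values lay above every other library. PAXINDRAFT_57817, also lowered, averaged 48.9 ± 22.1 CPM on K-depleted medium, 69.0 ± 18.0 CPM on complete medium and 31.5 ± 8.12 to 38.9 ± 3.60 CPM with the minerals, with K-depleted replicate 4 at 88.0 CPM and the 4 others between 36.2 and 45.2 CPM. The lowered member PAXINDRAFT_165239 averaged 11.2 ± 3.86 CPM on K-depleted medium, 19.5 ± 4.90 CPM on complete medium and 7.10 ± 0.204 to 8.68 ± 0.837 CPM with the minerals.

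Per gene, the comparison of each mineral with K-depleted medium was made in an edgeR quasi-likelihood fit over all 25 libraries, with p-values adjusted over the 12744 tested genes. These contrasts chose the members, so only the counts of genes with an adjusted p below 0.05 are given, beside the share of all tested genes called in the same direction, and nothing is read from them. With muscovite, 6 of 67 raised members were called higher (background 1.499%) and 18 of 54 lowered members lower (1.86%). With phlogopite the numbers were 25 (2.77%) and 19 (2.38%), and with K-vermiculite 37 (22.5%) and 38 (23.7%). On complete medium, 21 raised members were called higher and 27 lowered members lower, where 33.5% of all tested genes were called higher and 33.5% lower, and 1 raised member was called lower and 2 lowered members higher. Called with each of the 3 minerals were 6 raised members (0.2903%) and 15 lowered ones (0.306%). The numbers were 3 and 7 without K-depleted replicate 4, 9 and 21 without K-depleted replicate 5, 4 and 3 without phlogopite replicate 5, and 2 and 8 without muscovite replicate 4. With none of the 3 minerals called were 20 raised and 13 lowered members, although their mean ratios met the rule. The counts with phlogopite moved most with single libraries: of the 44 members called in all, 7 were still called without phlogopite replicate 5, 14 without replicate 4 and 23 without replicate 3, whereas 82 and 81 were called without phlogopite replicates 1 and 2. Without K-depleted replicates 1 to 4 in turn, 22, 14, 17 and 21 members were called with phlogopite. With the phlogopite and K-depleted groups fitted alone, 2 raised and 0 lowered members were called, and with DESeq2 over all groups 53 and 31. With the replicate number as a further term in the edgeR fit, 35 and 19 were called with phlogopite. With muscovite, 15 of the 24 called members were still called without K-depleted replicate 3 and 11 without muscovite replicate 4.

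The minerals were also set against each other in the same fit, with 5 libraries per group. The members were chosen from the muscovite, phlogopite and K-vermiculite means of the same libraries, which the rule holds past 1 threshold, with a bound on K-vermiculite alone. Differences between the minerals are therefore given as a description as well, with no p, and nothing is read from the counts of calls beside the background. Between phlogopite and muscovite, 0 of 67 raised members and 1 of 54 lowered members had an adjusted p below 0.05 in edgeR, where 4.15% of all tested genes did. At an unadjusted p below 0.05 in edgeR there were 5 raised members (7.46%), where 20.6% of all tested genes were. DESeq2 called 0 raised members, with 10 (14.9%) at an unadjusted p below 0.05, where 21.0% of all tested genes were. The raised members' median log2 fold change of phlogopite over muscovite was 0.24, with 58 of 67 above 0, against a median of 0.00 over all tested genes. The size of this difference moved with single libraries. Without phlogopite replicate 5, the raised members' median log2 ratios of group means over K-depleted medium were 0.51 with phlogopite and 0.48 with muscovite. Without muscovite replicate 3 they were 0.67 and 0.34. With group medians in place of means they were 0.81 and 0.29. The widest log2 fold change of phlogopite over muscovite was 1.22 for PAXINDRAFT_65363, chosen after its values were seen. The muscovite values of that gene were 49.4, 59.1, 249, 153 and 56.8 CPM and the phlogopite values 52.8, 47.1, 237, 417 and 552 CPM, which overlap.

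The lowered member called between phlogopite and muscovite was PAXINDRAFT_64507. It measured 31.4, 32.6, 32.5, 25.5 and 31.2 CPM with muscovite and 39.2, 42.9, 36.2, 52.9 and 42.6 CPM with phlogopite, without overlap and with a log2 fold change of 0.49. It was not called without muscovite replicates 1, 4 or 5 or phlogopite replicates 4 or 5. On K-depleted medium it measured 54.9, 55.5, 54.1, 79.5 and 52.5 CPM, and with K-vermiculite 32.1, 32.7, 28.0, 34.2 and 35.3 CPM, so phlogopite lay nearest to K-depleted medium.

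**Figure D4:**
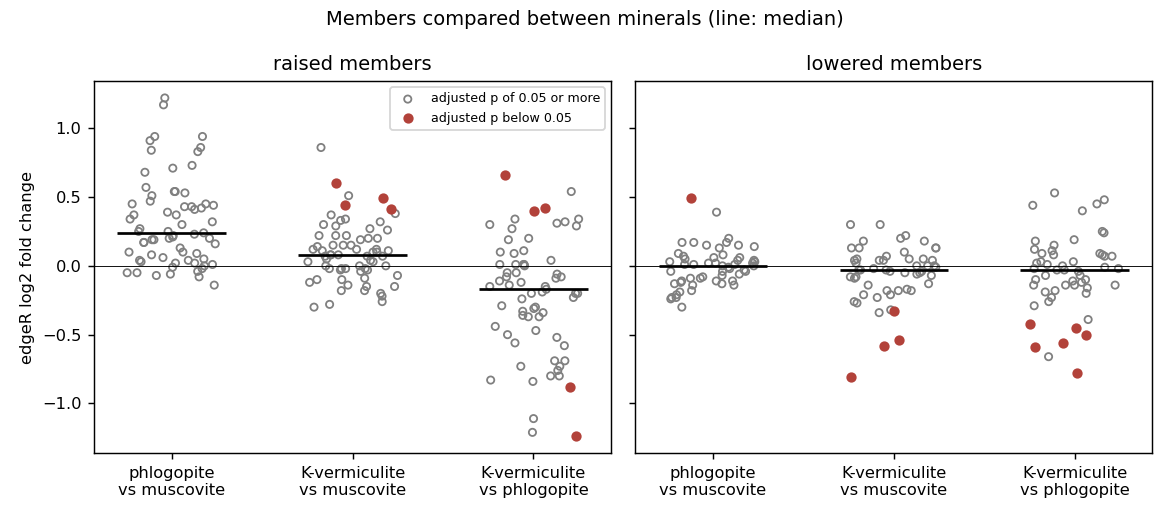
edgeR log2 fold change between minerals for each raised (left) and lowered (right) member, filled where the adjusted p was below 0.05, with the median as a line. No raised member was called between phlogopite and muscovite although their median was 0.24, and the lowered members called between K-vermiculite and another mineral all lay below 0.

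Between K-vermiculite and muscovite, 4 raised members were called higher and 4 lowered members lower with K-vermiculite, where 39.1% of all tested genes were called (18.9% higher and 20.2% lower). The raised ones were PAXINDRAFT_165388, PAXINDRAFT_181295, PAXINDRAFT_100354 and PAXINDRAFT_19376. PAXINDRAFT_165388 measured 14.3, 11.3, 15.2, 13.1 and 14.4 CPM with muscovite, 12.2, 12.3, 15.2, 13.1 and 16.4 CPM with phlogopite and 16.8, 19.2, 20.2, 21.1 and 18.3 CPM with K-vermiculite. All K-vermiculite values were above all muscovite and phlogopite ones, with a log2 fold change of 0.44 over muscovite. PAXINDRAFT_181295 measured 28.3, 27.1, 38.9, 35.8 and 23.9 CPM with muscovite and 43.4, 42.1, 39.2, 44.2 and 42.5 CPM with K-vermiculite, again without overlap and with a log2 fold change of 0.41. For PAXINDRAFT_100354 the log2 fold change was 0.49 and for PAXINDRAFT_19376 it was 0.60. Each of these last calls was lost in 7 of 25 fits without 1 library. For PAXINDRAFT_100354 these were the fits without muscovite replicates 1, 2, 3 and 5 and K-vermiculite replicates 1, 4 and 5. For PAXINDRAFT_19376 they were those without muscovite replicates 1, 2 and 5 and K-vermiculite replicates 1, 2, 4 and 5.

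The lowered members called lower with K-vermiculite than with muscovite were PAXINDRAFT_118716, PAXINDRAFT_62190, PAXINDRAFT_102608 and PAXINDRAFT_99800. PAXINDRAFT_118716 measured 53.5, 51.2, 49.3, 37.3 and 50.5 CPM with muscovite, 52.6, 57.4, 50.5, 39.1 and 42.7 CPM with phlogopite and 35.5, 35.2, 33.4, 30.8 and 31.0 CPM with K-vermiculite, and the K-vermiculite values lay below all the others, with a log2 fold change of -0.58 against muscovite. On K-depleted medium it measured 65.6, 66.6, 61.9, 58.8 and 57.2 CPM and on complete medium 49.8, 49.1, 38.9, 42.6 and 42.4 CPM, so that K-vermiculite was the lowest group. PAXINDRAFT_62190 averaged 35.8 ± 3.13 CPM (SD, n = 5) with muscovite and 25.3 ± 2.39 CPM with K-vermiculite, a log2 fold change of -0.54. PAXINDRAFT_102608 averaged 5.66 ± 1.03 and 3.32 ± 0.725 CPM, a log2 fold change of -0.81. PAXINDRAFT_99800 averaged 20.6 ± 3.00 and 16.9 ± 1.21 CPM, a log2 fold change of -0.33, and it was not called without muscovite replicates 3 or 5 or K-vermiculite replicate 5. The number of members called in this comparison was 5 without muscovite replicate 5 or K-vermiculite replicate 5.

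Between K-vermiculite and phlogopite, 5 raised and 6 lowered members were called, where 50.4% of all tested genes were (25.1% higher and 25.3% lower). With these groups fitted alone, 2 raised and 11 lowered members were called, and the number over all tested genes in that fit is not given here. The raised members' median log2 fold change of K-vermiculite over phlogopite was -0.17, with 45 of 67 below 0, against a median of 0.00 over all tested genes. By group means over K-depleted medium this order turned without phlogopite replicate 5, when their median log2 ratios were 0.62 with K-vermiculite and 0.51 with phlogopite. Of the 5 called, PAXINDRAFT_165388, PAXINDRAFT_181295 and PAXINDRAFT_19376 were higher with K-vermiculite, with log2 fold changes of 0.42, 0.40 and 0.66. PAXINDRAFT_19376 was not called without phlogopite replicate 2 or with these groups fitted alone. The other 2, PAXINDRAFT_23589 and PAXINDRAFT_172245, were lower with K-vermiculite and were chosen after their values were seen. PAXINDRAFT_23589 measured 3.95, 4.43, 12.3, 13.9 and 22.2 CPM with phlogopite and 5.32, 4.86, 5.90, 3.82 and 4.90 CPM with K-vermiculite, so phlogopite replicates 1 and 2 lay within the K-vermiculite range and replicates 3 to 5 above it, and the log2 fold change was -1.24. PAXINDRAFT_172245 measured 22.4, 19.7, 49.6, 68.9 and 95.1 CPM with phlogopite and 31.0, 30.2, 26.2, 22.1 and 34.4 CPM with K-vermiculite, with a log2 fold change of -0.88. The 6 lowered members were all lower with K-vermiculite. Their log2 fold changes were -0.59 in PAXINDRAFT_118716, -0.50 in PAXINDRAFT_99800, -0.56 in PAXINDRAFT_62190, -0.45 in PAXINDRAFT_64507, -0.78 in PAXINDRAFT_102608 and -0.42 in PAXINDRAFT_105480, the last chosen after its values were seen. Without K-depleted replicate 4 this comparison called 18 members in place of 11, and without phlogopite replicates 1 and 2 it called 20 and 21. The number of all tested genes called ran from 5916 to 6543 over the fits without 1 library, against 6427 with all libraries. Nothing is read from these counts of members.

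How the members varied together between replicates was described from the deviations of log2 CPM from the group means over the 25 libraries. The median Pearson correlation between raised members was 0.82, between lowered members 0.44 and between raised and lowered members -0.15, against 0.04 over all genes of at least 5 CPM. All pairs share the same libraries, and the members were chosen from group means that rest in part on single libraries. Genes chosen through the same high library share its deviation, so nothing is read from the distance to all genes, and no p is given. Without the phlogopite libraries the median was 0.71 among raised members, and without K-depleted replicate 4 it was 0.16 among lowered members and 0.84 among raised ones.

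Some members lie beside each other in the reference gene order. PAXINDRAFT_100109 and PAXINDRAFT_100110 are adjacent raised members, with 184 and 136 CPM in muscovite replicates 3 and 4 for the former and 135 and 84.2 CPM for the latter, against 61.0 to 62.6 CPM and 42.2 to 44.5 CPM in the other muscovite libraries. The correlation of their deviations was 0.98. The raised neighbours PAXINDRAFT_171820 and PAXINDRAFT_84744 also had 0.98, and the lowered neighbours PAXINDRAFT_84855 and PAXINDRAFT_171872 had 0.95, with K-depleted replicate 4 at 37.1 and 93.9 CPM. PAXINDRAFT_19376 and PAXINDRAFT_173494, a pair chosen after its values were seen, had 0.88. Lowered members with 2 genes between them, also chosen after their values were seen, correlated less. PAXINDRAFT_165239 and PAXINDRAFT_105480 had -0.24, and PAXINDRAFT_76935 and PAXINDRAFT_180644 had 0.37. The correlation over all neighbouring genes was not computed. Reads shared between neighbours were not tested. Overlap with a neighbouring gene was annotated for 10 members (8.26%), against 8.39% of all reference genes.

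How many genes met the rule depended on single libraries. Without 1 library at a time, the number of raised genes ran from 36, without muscovite replicate 3, to 95, without K-depleted replicate 5. Without muscovite replicate 3, 35 of the 67 raised members still met the rule, and without muscovite replicate 4, 50 did. The number of lowered genes ran from 22, without K-depleted replicate 4, to 81, without K-depleted replicate 5, and 17 of the 54 lowered members met the rule without K-depleted replicate 4. In all, 20 raised and 10 lowered members met it whichever library was left out. Of the genes named here for other reasons, PAXINDRAFT_171517, PAXINDRAFT_170351, PAXINDRAFT_84744, PAXINDRAFT_103737, PAXINDRAFT_172480, PAXINDRAFT_171820 and PAXINDRAFT_100354 were among these 20, as were PAXINDRAFT_106804, PAXINDRAFT_12900 and PAXINDRAFT_156907. Among the 10 lowered ones were PAXINDRAFT_68792, PAXINDRAFT_64507, PAXINDRAFT_76935, PAXINDRAFT_103988, PAXINDRAFT_108123, PAXINDRAFT_118741 and PAXINDRAFT_81125.

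**Figure D5:**
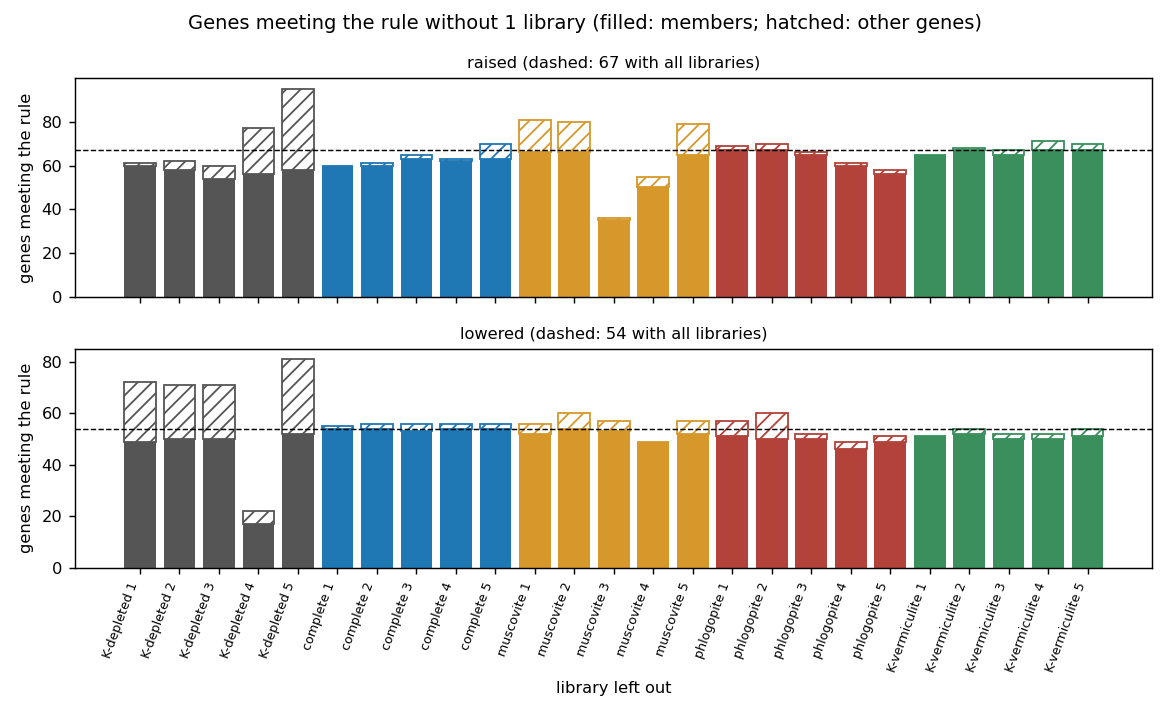
Number of genes that met the rule for raised (top) and lowered (bottom) genes when the library on the horizontal axis was left out, filled for members and hatched for other genes, with the number from all libraries dashed. The bars fall to 36 without muscovite replicate 3 and to 22 without K-depleted replicate 4.

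Some genes lay close to the thresholds. Just inside them were PAXINDRAFT_135106 and PAXINDRAFT_165388, whose smallest ratios were 1.251 and 1.257, and, among lowered members, PAXINDRAFT_182848 and PAXINDRAFT_57817, whose largest ratios were 0.7995 and 0.7978. Just outside were PAXINDRAFT_80575 and PAXINDRAFT_172775, at 1.247 and 1.244, and PAXINDRAFT_77107 and PAXINDRAFT_11434, at 0.8006 and 0.8025. PAXINDRAFT_80575 was 3.51-fold higher with phlogopite and 1.58-fold higher with muscovite, so the rule left it out for its K-vermiculite ratio alone. Before the bounds on complete medium and K-vermiculite, 148 genes were past the upper and 94 past the lower threshold with all 3 minerals.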

How the data were processed

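The authors deposited 1 table of whole-number read counts per gene, with 1 column for each of the 25 libraries. Libraries were made with the TruSeq Stranded mRNA kit, per the labels' protocols. The submitters' processing notes name bcl2fastq 2.19, STAR 2.5.2b and HTSeq, with no roles. Genome build, strand use and the treatment of shared reads were not given in the sources used here, so members that overlap a neighbouring gene carry that uncertainty. The IDs were matched to a RefSeq gene table of the same strain's assembly, used only for gene order, overlap and biotype, and all 121 members matched. That gene order assumes a new scaffold wherever start positions drop.

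Groups came from the labels. Membership used CPM from column totals, with 0.5 added to group means. Deviations from the group means correlated above 0.1 in all 5 same-numbered pairs of K-depleted and phlogopite libraries (0.14 to 0.38), which was the criterion of pairing. No other pair of groups met it, and no label gives a shared batch. Of all 50 same-numbered pairs, 24 were above 0.1, so meeting the criterion does not show that these cultures were paired. Between replicates, chi-square per degree of freedom was 10.6 to 91.9, so no libraries were merged.

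Tests used edgeR 4.0.16 in R 4.3.3: filterByExpr (minimum count 10, minimum total 15) left 12744 genes, libraries were scaled by TMM, and a robust quasi-likelihood model took in all 25 libraries, with group as its only term. A gene was called at a Benjamini-Hochberg adjusted p below 0.05 within its contrast. Contrasts between minerals had been planned as tests of the members; since the members were chosen from the means of the same libraries, their p-values are not given. The common biological coefficient of variation was 11.9%. The fit was tested on simulated data that had the same spread in every gene and group and no library apart from its group. That test therefore does not cover members with uneven groups. p-values measure the spread between these cultures.

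Alternatives were DESeq2 1.42.0 (Wald test), DESeq2 size factors, library totals alone, no filter, a replicate block, the compared groups fitted alone, each library left out, and other thresholds, offsets and averages in the rule. Named are, in each direction, the 8 members with the highest shared ratio, the 4 with the highest mean CPM, up to 4 called per mineral pair, 3 neighbour pairs and the genes nearest the threshold. Genes outside this rule are said to be chosen after their values were seen. The members and lists were chosen with earlier results of these data known. Product names, proteins, gene copies and promoters were not analysed here.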

Additional observations from a re-analysis of the deposited data

Results flagged for a closer look

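The 58 named members gave 290 groups of 5 values, of which 36 (12.4%) held 1 library whose gap to the nearest other value was a large part of the group's range, by Dixon's criterion for 5 values (0.71). Chance gives such a value in about 5% of groups, but that is no background for these 36, since the members were chosen in part through such libraries. Of these, 17 were high values of K-depleted replicate 4 in lowered members: PAXINDRAFT_100001 (41.0 CPM), PAXINDRAFT_160756 (608 CPM), PAXINDRAFT_171872 (93.9 CPM), PAXINDRAFT_96152 (237 CPM), PAXINDRAFT_177335 (156 CPM), PAXINDRAFT_113227 (74.1 CPM), PAXINDRAFT_20919 (34.5 CPM), PAXINDRAFT_5582 (327 CPM), PAXINDRAFT_169682 (448 CPM), PAXINDRAFT_64507 (79.5 CPM), PAXINDRAFT_84855 (37.1 CPM), PAXINDRAFT_182848 (225 CPM), PAXINDRAFT_57817 (88.0 CPM), PAXINDRAFT_102758 (10.8 CPM), PAXINDRAFT_103988 (22.3 CPM), PAXINDRAFT_165239 (18.0 CPM) and PAXINDRAFT_81125 (9.76 CPM). K-depleted replicate 5 was low in PAXINDRAFT_105480 (32.4 CPM) and PAXINDRAFT_128630 (19.7 CPM). Over all genes of at least 5 CPM, K-depleted replicate 4 was far above its group in 3.36% and muscovite replicate 3 in 4.25%.

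Muscovite replicate 4 stood apart in 5 members, high in PAXINDRAFT_171054 (904 CPM) and PAXINDRAFT_100354 (103 CPM) and low in PAXINDRAFT_64507 (25.5 CPM), PAXINDRAFT_118716 (37.3 CPM) and PAXINDRAFT_118741 (29.4 CPM). Muscovite replicate 3 was high in PAXINDRAFT_135106 (9.84 CPM) and PAXINDRAFT_165239 (9.36 CPM). On complete medium, replicate 5 was high in PAXINDRAFT_11971 (907 CPM) and PAXINDRAFT_100001 (16.5 CPM), replicate 3 was high in PAXINDRAFT_177335 (65.2 CPM), PAXINDRAFT_65363 (185 CPM) and PAXINDRAFT_81125 (8.27 CPM), and replicate 4 was low in PAXINDRAFT_68792 (239 CPM). Phlogopite replicate 2 was low in PAXINDRAFT_102608 (3.36 CPM) and replicate 4 in PAXINDRAFT_20962 (1.06 CPM). K-vermiculite replicate 3 was low in PAXINDRAFT_84855 (9.81 CPM) and replicate 4 high in PAXINDRAFT_106804 (156 CPM).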

How the results depend on the processing

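The numbers of raised and lowered genes (67 and 54) were 101 and 107 at 1.2-fold, 12 and 3 at 1.5-fold, and 35 and 31 with group medians, which shared 17 and 16 genes with the members. TMM scaling gave 87 and 50, a minimum of 1 CPM 69 and 67, and no offset 65 and 57. Without 1 library the ranges were 36 to 95 and 22 to 81. With group medians the smallest log2 ratio turned to 0.08 in PAXINDRAFT_160756, 0.09 in PAXINDRAFT_96152, 0.07 in PAXINDRAFT_20919, 0.13 in PAXINDRAFT_84855, 0.08 in PAXINDRAFT_57817 and -0.17 in the raised PAXINDRAFT_100109. Over the fits without 1 library it ran from -0.76 to 0.02 in PAXINDRAFT_160756, -0.68 to 0.18 in PAXINDRAFT_20919, -0.58 to 0.01 in PAXINDRAFT_169682 and -0.59 to 0.04 in PAXINDRAFT_84855, turning without K-depleted replicate 4, and from -0.0018 (without muscovite replicate 3) to 0.42 in PAXINDRAFT_80575. Members called with muscovite (24) were 37 with DESeq2 and 14 with the compared groups fitted alone, and all genes (428) were 644 and 193. With phlogopite, members (44) were 84 and 2, and all genes (656) were 1127 and 11. Between phlogopite and muscovite, all genes (529) were 805 and 214, and between K-vermiculite and muscovite, members (8) were 14 with these groups alone. By direction of membership, the groups fitted alone called 58 raised members in place of 37 with K-vermiculite (26 lowered in place of 38) and 40 in place of 22 on complete medium, and 2 raised in place of 5 and 11 lowered in place of 6 between K-vermiculite and phlogopite. The cause was not tested. These counts, and the 14 members between K-vermiculite and muscovite, stand without the number of all tested genes called in those fits. Nothing is therefore read from them. Without 1 library, members called ran from 11 to 32 with muscovite (all genes 224 to 526) and from 7 to 82 with phlogopite (96 to 1378). They ran from 59 to 78 with K-vermiculite (5338 to 6013) and from 45 to 56 on complete medium (8238 to 8637). Between minerals they ran from 0 to 2 for phlogopite and muscovite (all genes 212 to 761), 5 to 10 for K-vermiculite and muscovite (4403 to 5102), and 9 to 21 for K-vermiculite and phlogopite (5916 to 6543). Scaling by library totals moved the share of higher calls to 33.3% in place of 44.6% with muscovite, 32.1% in place of 53.8% with phlogopite, 60.7% in place of 50.0% on complete medium and 58.5% in place of 48.4% for K-vermiculite against muscovite. Between the other groups replicate numbers did not meet the criterion of pairing, since at least 1 of the 5 same-numbered pairs correlated at 0.1 or below. This criterion cannot show that cultures were unpaired. Muscovite and phlogopite had 4 of 5 pairs above 0.1, with correlations from -0.39 to 0.58. Of the 25 libraries, 11 correlated best with their own number. With the replicate block, members called with phlogopite, whose numbers met the criterion of pairing, were 54 in place of 44 (raised 35 in place of 25, all genes 927 in place of 656), 43 of the 44 remained called, and every count of members or of all genes called stayed within 1.5 times. The lowest count of a member in a library was 28, and an effect of depth was not tested.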
